A study of Homo sapiens with 12 samples.

Results

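The 10 genes described here are 3 Notch receptors (NOTCH1, NOTCH2 and NOTCH3), 3 Notch ligands (DLL1, DLL3 and JAG1) and 4 genes of the HES and HEY family of basic helix-loop-helix repressors (HES1, HES5, HES6 and HEY1). They were taken by name from the 28278 genes of the count table, and all 10 were found in it. Of these, 8 had enough counts to be tested in every comparison, while DLL1 and HES5 did not and are described by their counts.

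The study measured polyadenylated RNA in motor neuron cultures made from WA09-Islet1-GFP, an established and otherwise wild-type human embryonic stem cell line in which green fluorescent protein reports the motor neuron transcription factor Islet1. Cultures were given the organochlorine pesticide cis-chlordane or its solvent DMSO for 16 h, lifted with trypsin, and sorted by flow cytometry into a GFP-positive and a GFP-negative fraction. This gives 4 groups of 3 libraries each: control GFP-positive, treated GFP-positive, control GFP-negative and treated GFP-negative. The labels state 10 µM cis-chlordane, while the study's methods state another concentration for this experiment. The titles of the treated libraries also contain the word untreated, but the treatment entry of each separates the groups. All groups come from 1 line, and the study's methods count an independent thaw as a biological replicate.

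Notch signaling passes between touching cells. A Delta or Jagged ligand on a neighbor pulls on the receptor, ADAM metalloproteases and then gamma-secretase cut it, and the freed intracellular domain joins RBPJ and a Mastermind coactivator on DNA to switch on HES and HEY genes. In the embryonic neural tube this holds progenitors in an undifferentiated, dividing state, since HES1 and HES5 repress proneural genes such as NEUROG2, whereas HES6 and DLL3 are commonly found in cells that are committing to a neuronal fate. DLL3 differs from the other Delta ligands in that it sits mostly inside the cell and does not activate receptors on neighbors.

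Depth ranged from 23414935 to 38347050 counts per library, with a median of 31553596. ISL1, the gene behind the reporter, was at 65.9 ± 3.18 CPM (read counts scaled to the TMM-adjusted library total, mean ± SD, n = 3) in control GFP-positive and 2.56 ± 0.189 in control GFP-negative libraries, and the summed level of 9 motor neuron markers was 2290 to 2870 CPM against 389 to 427 CPM. The GFP-negative cells, which the labels also call motor neurons, thus held fewer transcripts of motor neuron genes. HSPA5, the main chaperone of the endoplasmic reticulum, rose from 320 to 3180 CPM in GFP-positive and from 511 to 6040 CPM in GFP-negative cells. Control GFP-negative replicate 3 stood apart from the other libraries, since 227 genes had at least 50 counts and more than 5 times the count of any other library there, against 0 to 2 such genes elsewhere, and they took 0.955% of its counts. They included the hemoglobin gene HBB, with 88058 counts against at most 3239 elsewhere, and the neutrophil receptor gene CSF3R, with 3599 counts against at most 122. None of the 10 genes was among them. Values without that library are given below for JAG1, HES6 and some counts of genes, but not for each result that uses it.

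RBPJ binds a core of TGGGAA in DNA. The 250 bases before the RefSeq start site are shown here for HES1 and HES5, the best known direct targets, and for JAG1, the gene whose treatment response differed most between the fractions among the 8 tested, with each TGGGAA, read on either strand, in capitals (5′ to 3′ along the gene, GRCh38.p14). HES1 on the plus strand is shown at chr3:194135898-194136147, HES5 on the minus strand at chr1:2530264-2530513, and JAG1 on the minus strand at chr20:10674000-10674249.
HES1: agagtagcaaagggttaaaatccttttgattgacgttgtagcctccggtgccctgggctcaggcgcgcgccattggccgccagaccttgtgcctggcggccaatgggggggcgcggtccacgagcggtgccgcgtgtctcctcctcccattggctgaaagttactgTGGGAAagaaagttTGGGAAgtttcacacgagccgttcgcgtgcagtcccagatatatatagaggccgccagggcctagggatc
HES5: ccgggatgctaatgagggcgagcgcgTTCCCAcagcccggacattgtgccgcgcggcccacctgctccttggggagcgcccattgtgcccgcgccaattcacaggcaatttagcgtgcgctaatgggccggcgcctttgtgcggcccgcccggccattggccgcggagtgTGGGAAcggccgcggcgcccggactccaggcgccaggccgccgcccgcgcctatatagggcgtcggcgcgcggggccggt
JAG1: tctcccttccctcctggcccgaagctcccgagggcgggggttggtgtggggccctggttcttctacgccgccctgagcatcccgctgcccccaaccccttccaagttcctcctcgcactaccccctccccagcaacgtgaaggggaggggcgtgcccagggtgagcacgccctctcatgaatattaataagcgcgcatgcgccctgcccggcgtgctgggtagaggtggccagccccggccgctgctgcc
HES1 held 2 matches, 84 to 79 and 70 to 65 bases before the start, and both read TGGGAA along the gene. HES5 also held 2, at 224 to 219 bases in the reverse orientation and at 80 to 75 bases in the forward one. At least 1 match was present in 20.8% of all 35116 promoter windows in the RefSeq table, and 2 or more in 2.9%. Windows were matched for 7 of the 10 genes, and those of NOTCH1, NOTCH2, NOTCH3, JAG1 and HES6 held no TGGGAA, nor did that of NRARP, another direct Notch target. The N-box CACNAG, to which HES repressors bind, lay in 32% of all windows, with 3 matches before HES1 and 1 before NOTCH3. A match is a stretch of letters and was not tested for binding.

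The genes lie, in hg38 and GENCODE release 44, at chr9:136494433-136546048 (NOTCH1, minus strand), chr1:119911553-120100779 (NOTCH2, minus), chr19:15159038-15200995 (NOTCH3, minus), chr6:170282206-170306565 (DLL1, minus), chr19:39498895-39508481 (DLL3, plus), chr20:10637684-10673999 (JAG1, minus), chr3:194136148-194138732 (HES1, plus), chr1:2528745-2530263 (HES5, minus) and chr2:238238267-238240662 (HES6, minus). Exons of DLL1 overlap those of FAM120B over 370 bases, and exons of JAG1 overlap ENSG00000270792 over 306 bases. How the counting treated strand is not given in the sources used here, so reads there could belong to either gene. NOTCH2 shares part of its sequence with 4 NOTCH2NL genes in the table, at 2 to 40 counts per library, where NOTCH2 had 126 to 1981. How reads from the shared part were counted is not given, so NOTCH2 counts are uncertain to that extent.

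To compare levels between genes, CPM was divided by the length of the canonical transcript in kilobases. In control GFP-positive cells HES6 was highest at 121 ± 15.4 CPM per kb, followed by DLL3 at 91.3 ± 14.5 and JAG1 at 19.2 ± 3.27. NOTCH3, HEY1 and NOTCH1 came next at 3.58 ± 0.436, 3.39 ± 0.736 and 3.05 ± 0.294 CPM per kb and did not differ beyond their spread. HES1 was at 1.74 ± 0.0326 and NOTCH2 at 0.614 ± 0.198 CPM per kb. In control GFP-negative cells HES6 and DLL3 again led, at 224 ± 66.2 and 120 ± 17.6 CPM per kb, but NOTCH3 (32.6 ± 4.99) and NOTCH1 (22.6 ± 3.93) now stood above JAG1 (12.8 ± 2.15), with HES1 at 17.1 ± 3.44. The order of the genes thus differed between the fractions, with NOTCH1, NOTCH3 and HES1 ranking higher in GFP-negative cells and NOTCH2, at 4.74 ± 1.91 CPM per kb, below HEY1 in both. DLL1 and HES5 are left out of this order, since they had 0 to 6 counts in all libraries but 1.

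**Figure D1:**
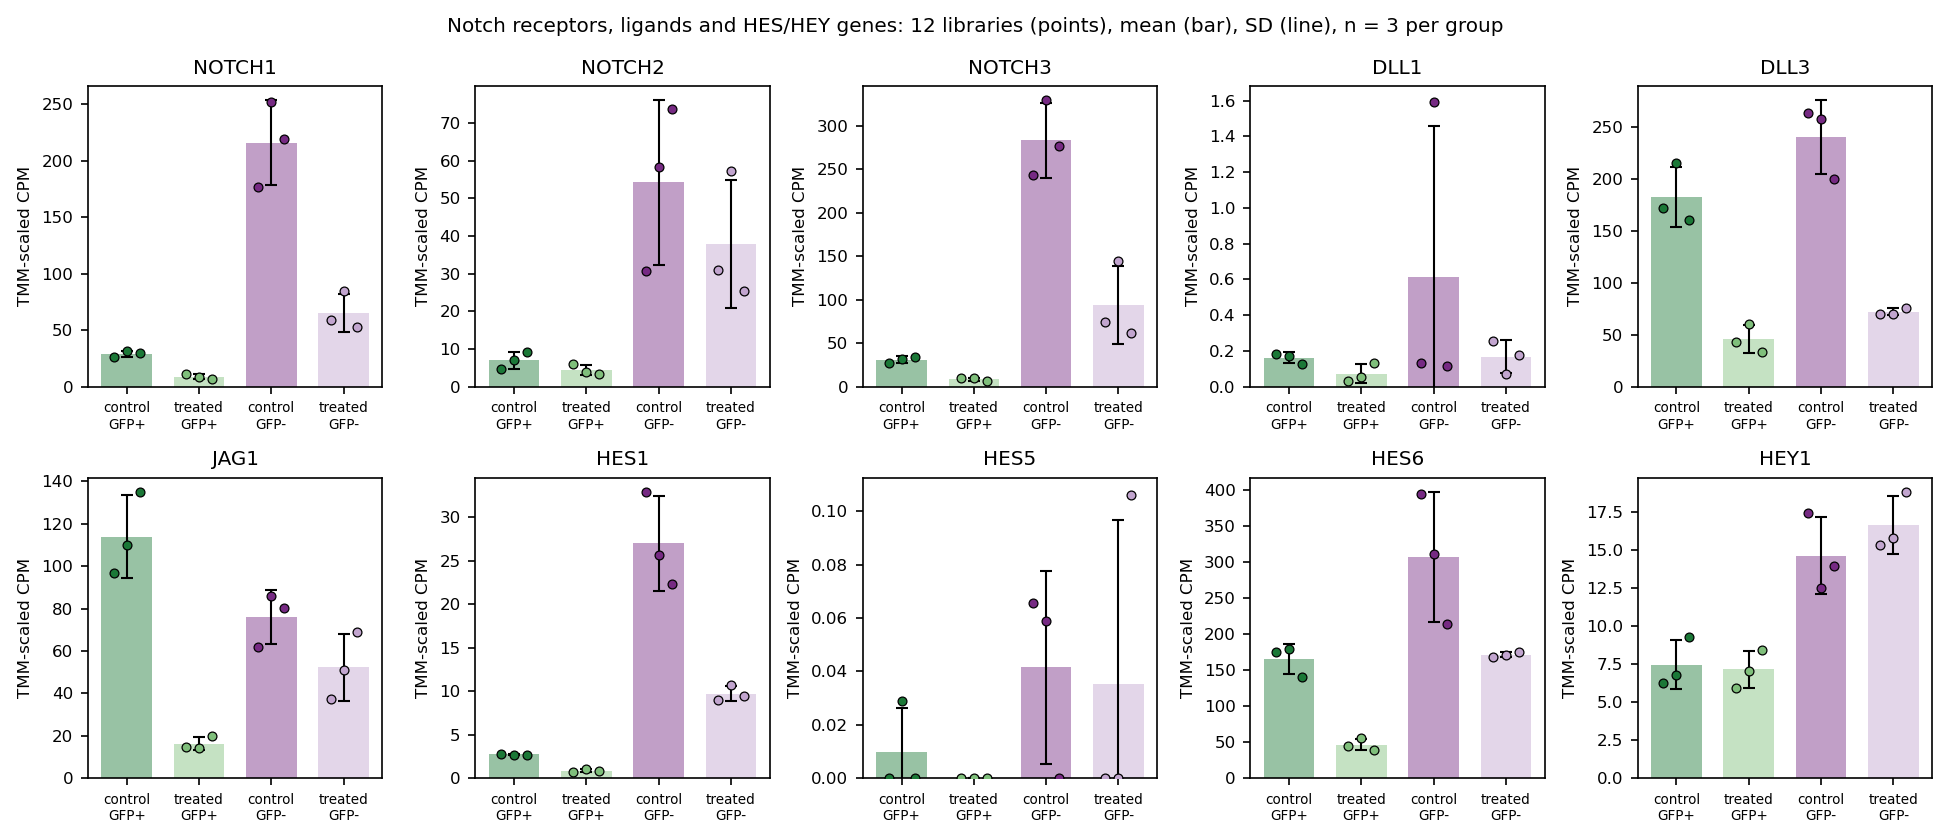
TMM-scaled CPM of the 10 genes in each of the 12 libraries (points), with the mean (bar) and SD (line) of the 3 libraries in each group; GFP+ and GFP- are the sorted fractions, and each panel has its own linear axis from 0. The receptors and HES1 are highest in control GFP-negative cells, JAG1 is highest in control GFP-positive cells, and HES5 never passes 0.106 CPM.

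Receptor transcripts were lower in GFP-positive than in GFP-negative cells, in control and in treated cultures alike. NOTCH1, a receptor made by neural progenitors, was at 26.0, 31.3 and 30.3 CPM in the control GFP-positive libraries and at 177, 252 and 219 CPM in the control GFP-negative ones. The 2 groups did not overlap, and the difference was -3.00 on the log2 scale (SE 0.18, adjusted p = 1.5e-06). NOTCH3, which has its best known role in vascular smooth muscle but is also made by neural progenitors, was at 26.8, 32.2 and 34.1 against 243, 329 and 277 CPM, a log2 difference of -3.30 (SE 0.17, adjusted p = 1.0e-06). NOTCH2 was at 4.70, 7.12 and 9.23 against 30.7, 58.2 and 73.7 CPM, a log2 difference of -3.07 (SE 0.36, adjusted p = 1.0e-04). In treated cultures the same 3 differences were -2.86, -3.45 and -3.08, with SEs of 0.24, 0.32 and 0.32, so each receptor kept a gap of about the same size between the fractions.

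NOTCH1 and NOTCH3 fell with cis-chlordane in both fractions. In GFP-positive cells NOTCH1 went from the control values above to 11.3, 8.33 and 7.05 CPM, with every treated library below every control library (log2 fold change -1.64, SE 0.20, adjusted p = 2.7e-08). NOTCH3 went to 9.67, 9.59 and 6.13 CPM (log2 fold change -1.80, SE 0.21, adjusted p = 4.9e-09). The fall was of similar size in GFP-negative cells. There NOTCH1 was at 58.9, 84.7 and 52.9 CPM after treatment (log2 fold change -1.75, SE 0.22, adjusted p = 0.00042) and NOTCH3 at 74.2, 145 and 62.0 CPM (log2 fold change -1.62, SE 0.30, adjusted p = 0.003). Treated replicate 2 was the highest of its group for both genes and for NOTCH2, and still lay below all controls for NOTCH1 and NOTCH3. NOTCH2 did not pass the test. It was at 5.92, 4.02 and 3.34 CPM in treated GFP-positive libraries (log2 fold change -0.60, SE 0.26, adjusted p = 0.057) and at 30.9, 57.2 and 25.4 CPM in treated GFP-negative libraries (-0.54, SE 0.36, adjusted p = 0.28), overlapping the controls in both. When a fall of more than 2-fold itself was tested, NOTCH3 in GFP-negative cells did not pass (adjusted p = 0.11).

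The ligands DLL3 and JAG1 did not share the receptors' large gap between the fractions in controls. With treatment, DLL3 fell about as much as NOTCH1 and NOTCH3 did. DLL3 was high in both fractions, at 172, 216 and 161 CPM in control GFP-positive and 264, 258 and 200 CPM in control GFP-negative libraries, and these ranges overlapped. Treatment lowered it to 43.5, 60.1 and 33.5 CPM in GFP-positive cells (log2 fold change -1.93, SE 0.19, adjusted p = 1.1e-10) and to 70.3, 70.6 and 76.0 CPM in GFP-negative cells (-1.76, SE 0.16, adjusted p = 8.4e-05). All treated libraries lay below all controls of their fraction. The gap between the fractions was under 2-fold in both conditions, with log2 differences of -0.51 (adjusted p = 0.029) in control and -0.64 (adjusted p = 0.015) in treated cells.

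JAG1, a ligand that activates receptors on neighboring cells and is mutated in Alagille syndrome, was the only 1 of the 8 whose response to cis-chlordane differed between the fractions in the edgeR fit without a block, while HES6 also passed in some alternatives. In GFP-positive cells it was at 96.8, 110 and 135 CPM in controls and at 14.6, 14.4 and 20.1 CPM after treatment. Treated libraries were all far below the controls, and the fall was the largest of the 8 genes in either fraction (log2 fold change -2.72, SE 0.19, adjusted p = 3.6e-14). In GFP-negative cells it was at 61.7, 86.1 and 80.4 CPM in controls and at 37.3, 50.9 and 68.8 CPM after treatment, and these ranges overlapped (log2 fold change -0.57, SE 0.23, adjusted p = 0.09). The difference of the 2 responses, tested over all 12 libraries, was -2.25 (SE 0.32, adjusted p = 0.0017), and JAG1 ranked 25 by p among the 16226 genes in that test. Without control GFP-negative replicate 3 it was -2.30 (adjusted p = 0.00095). JAG1 in control GFP-positive cells lay above all control GFP-negative libraries without passing the test (log2 difference 0.47, SE 0.18, adjusted p = 0.063), whereas in treated cells it lay below (-1.65, SE 0.23, adjusted p = 8.2e-05). DESeq2 gave 0.50 (adjusted p = 0.04) for the control difference, still under 2-fold. ISL1 itself fell in GFP-positive cells, from 65.9 to 12.0 CPM (log2 fold change -2.38, SE 0.20), and summed motor neuron markers from 2290 to 2870 CPM down to 764 to 1140 CPM; their part in the JAG1 result was not tested. In bulk RNA, fewer cells of a type and less RNA per cell cannot be told apart, here and for all results.

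DLL1, the ligand through which differentiating neurons signal to their neighbors, had 1 to 6 counts in 11 libraries and 54 counts, or 1.59 CPM, in control GFP-negative replicate 2. It was the only gene in that library with at least 50 counts and more than 5 times the count of any other library. Leaving that library aside, DLL1 lay between 0.0300 and 0.258 CPM, and 3 counts correspond to 0.0790 to 0.129 CPM. No difference between groups was detectable at this depth.

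HES1, the target most often used as a readout of Notch activity, followed NOTCH1 and NOTCH3. It was at 2.80, 2.70 and 2.73 CPM in control GFP-positive and at 32.9, 25.7 and 22.3 CPM in control GFP-negative libraries, a log2 difference of -3.40 (SE 0.21, adjusted p = 2.1e-06). In treated cells the difference was -3.42 (SE 0.26, adjusted p = 7.0e-07). Cis-chlordane lowered HES1 to 0.721, 1.12 and 0.842 CPM in GFP-positive cells (log2 fold change -1.54, SE 0.34, adjusted p = 0.00029) and to 8.99, 10.7 and 9.50 CPM in GFP-negative cells (-1.49, SE 0.21, adjusted p = 0.00071). The groups did not overlap in either fraction. The GFP-positive values rest on 24 to 93 counts per library, and when a fall of more than 2-fold itself was tested neither fraction passed, with adjusted p of 0.13 in GFP-positive and 0.076 in GFP-negative cells.

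HES5, the other classical neural Notch target, had 0 to 3 counts in every library. Its 3 counts in treated GFP-negative replicate 3 came to 0.106 CPM, and all 3 treated GFP-positive libraries had 0. A count of 0 allows up to 3 counts, so that HES5 could be at most 0.0790 to 0.129 CPM in libraries without a read. No fold change is given, since all groups lie at or under this floor.

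HES6 was the most abundant of the 10 genes per kilobase. Its estimated fall was larger in GFP-positive cells, but the test of that difference did not pass in every fit. Unlike HES1, HES6 promotes neuronal differentiation and opposes HES1. It was at 176, 179 and 141 CPM in control GFP-positive libraries and at 44.7, 55.4 and 39.9 CPM after treatment (log2 fold change -1.75, SE 0.17, adjusted p = 1.4e-10). In GFP-negative cells it was at 395, 312 and 214 CPM in controls and at 168, 171 and 175 CPM after treatment. These groups did not overlap either, but the fall was under 2-fold (-0.87, SE 0.21, adjusted p = 0.012), and without control GFP-negative replicate 3, the lowest control, it was -1.07 (adjusted p = 0.00074) and met the 2-fold limit. The difference of the 2 responses was -0.98 (SE 0.27) and missed the threshold in the fit without a block (adjusted p = 0.081), while DESeq2 gave -0.91 and passed it (adjusted p = 0.037). Between the fractions the log2 difference was -1.0 (SE 0.20, adjusted p = 0.0034) in control cells, just under the 2-fold limit (-1.18 and past it without control GFP-negative replicate 3), and -1.85 (SE 0.16, adjusted p = 1.5e-06) in treated cells.

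HEY1, a target shared by Notch and bone morphogenetic protein signaling in several tissues, did not move detectably with treatment. It was at 6.26, 6.80 and 9.29 CPM in control and 5.95, 7.07 and 8.42 CPM in treated GFP-positive libraries (log2 fold change 0.01, SE 0.23, adjusted p = 0.96). In GFP-negative cells it was at 17.4, 12.5 and 13.9 CPM in control and 15.3, 15.8 and 18.8 CPM in treated libraries (0.16, SE 0.20, adjusted p = 0.57). The groups overlapped in both fractions. It was lower in GFP-positive cells, by -1.08 on the log2 scale in control (SE 0.23, adjusted p = 0.0042) and -1.19 in treated cultures (SE 0.20, adjusted p = 0.00038). The first of these lies close to the 2-fold limit and fell under it without control GFP-positive replicate 1 (-0.97), control GFP-positive replicate 2 (-0.99) or control GFP-negative replicate 1 (-0.95).

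**Figure D2:**
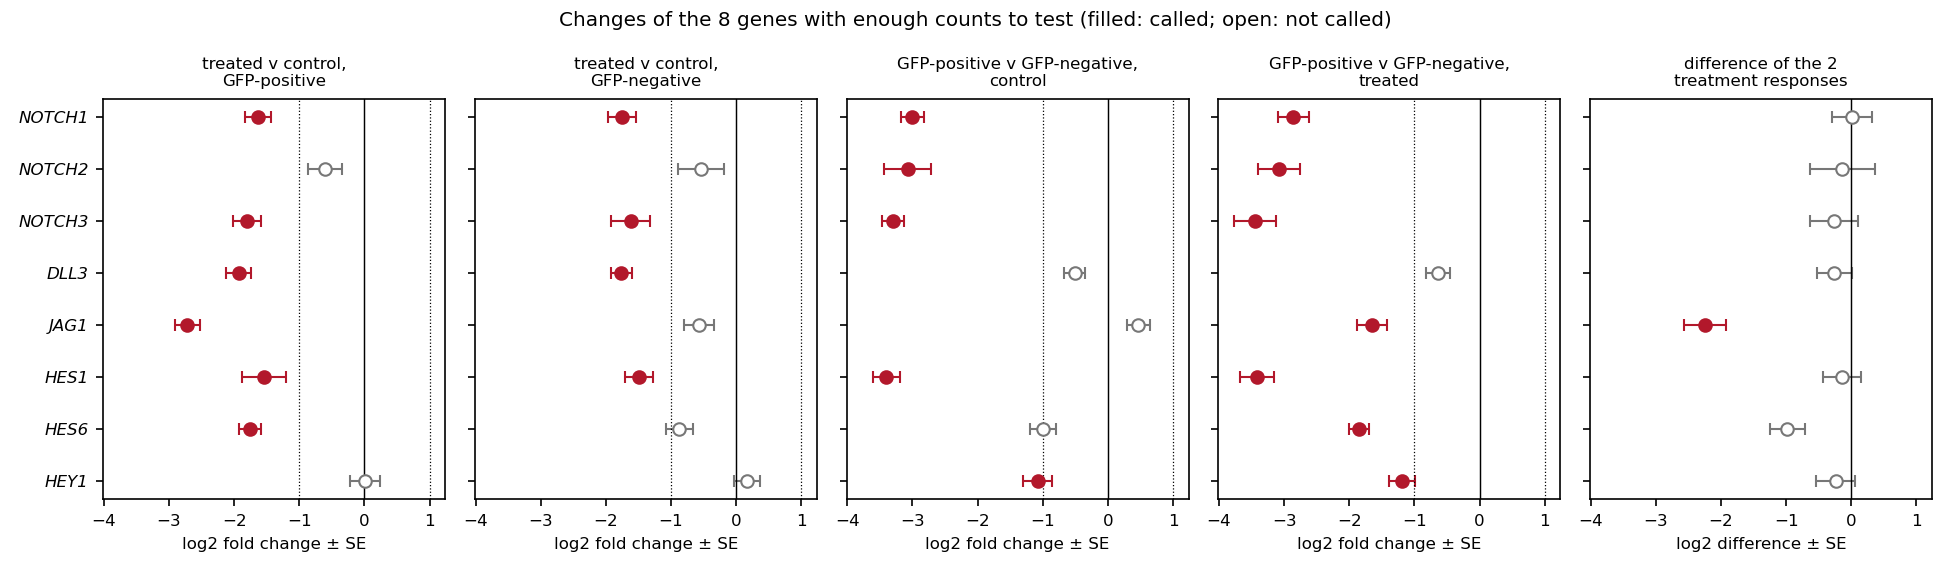
Log2 fold change (points) with SE (lines) of the 8 tested genes in the 4 comparisons, and the log2 difference of the 2 treatment responses (last panel); filled points were called, open points were not, and dotted lines mark 2-fold. All called points lie left of 0, and JAG1 at -2.25 is the only filled point in the last panel.

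Counted together, with a gene called when its adjusted p was under 0.05 and its change at least 2-fold, 6 of the 8 genes fell with treatment in GFP-positive cells (NOTCH1, NOTCH3, DLL3, JAG1, HES1 and HES6), against 11.2% of all 15333 genes tested. None rose, against 12.8% of all genes, and edgeR at an unadjusted p under 0.05 and DESeq2 also gave 0 higher. The median log2 fold change was -1.70 for the 8 genes and 0.03 for all genes. In GFP-negative cells 4 of 8 fell (NOTCH1, NOTCH3, DLL3 and HES1) against 9.75% of 15513 genes, and 0 rose against 8.59%, with medians of -1.18 and -0.01. The counts of genes that rose were 0 here too at an unadjusted p and with DESeq2. Without control GFP-negative replicate 3 the count of falls was 5, since HES6 joined. Both treatment comparisons ask what cis-chlordane does within a fraction, and no gene of the 8 was called higher in either.

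Between the fractions, 5 of 8 were lower in GFP-positive cells in control cultures (the 3 receptors, HES1 and HEY1) against 15.3% of 15404 genes (6 without control GFP-negative replicate 3, HES6 joining, and 4 without control GFP-negative replicate 1), and 7 of 8 in treated cultures (all but DLL3) against 13.7% of 15416 genes. None was higher, where 7.47% and 10% of all genes were. JAG1 in controls was the only gene higher at an unadjusted p under 0.05, and DESeq2 called 0 higher in both. The medians of the 8 genes were -2.04 and -2.36, those of all genes -0.02 and 0.05. These comparisons share libraries with the treatment comparisons above and do not add to them independently. The response differed between the fractions for 1 of 8 genes, lower in GFP-positive cells, against 1.22% of 16226 genes lower and 0.968% higher by adjusted p alone. None had a higher response in GFP-positive cells by edgeR, also at an unadjusted p under 0.05, or by DESeq2, which called 2 lower, JAG1 and HES6.

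Among 72 other genes of the pathway, changes went in both directions. In GFP-positive cells 6 of 67 tested rose and 9 fell with treatment, and in GFP-negative cells 4 of 68 rose and 11 fell, to be read against the shares of all genes given above. The median changes were -0.15 and -0.19. NRARP, a direct target that feeds back on the Notch complex, gave the largest fall of these genes in GFP-negative cells. It was at 74.4 to 102 CPM in control and 6.38 to 11.5 CPM in treated GFP-negative libraries, a log2 fold change of -3.38 (SE 0.25, adjusted p = 2.7e-05), and fell from 10.3 to 2.32 CPM in GFP-positive cells (-2.08, SE 0.25, adjusted p = 1.8e-08). Both changes left no overlap between the groups. Of the other HES and HEY genes, HEYL fell in GFP-negative cells, from 6.59 ± 0.819 to 2.39 ± 1.09 CPM (-1.48, adjusted p = 0.01), but not detectably in GFP-positive cells, where it was at 2.70 ± 0.255 and 2.39 ± 0.697 CPM. The difference of these responses did not pass (1.29, adjusted p = 0.16). HEY2 fell in both fractions, from 8.39 to 2.89 CPM in GFP-positive (-1.46, adjusted p = 9.2e-06) and from 4.84 to 1.90 CPM in GFP-negative cells (-1.37, adjusted p = 0.022). With HES2, these made 4 of 5 tested genes of that list lower in GFP-negative cells, and 2 of 5 in GFP-positive cells, against 9.75% and 11.2% of all genes.

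LFNG and MFNG, Fringe genes whose enzymes add sugars to the receptors and set their preference between Delta and Jagged ligands, fell in both fractions. LFNG went from 47.5 to 8.92 CPM in GFP-negative cells (log2 fold change -2.44, SE 0.28, adjusted p = 0.00029) and from 6.06 to 1.93 CPM in GFP-positive cells (-1.57, SE 0.29, adjusted p = 3.2e-05). MFNG fell by 1.48 in GFP-negative and by 1.89 in GFP-positive cells on the same scale. RFNG, the third Fringe gene, was not lower, at 105 and 114 CPM in control and treated GFP-positive cells (0.18, adjusted p = 0.36) and 91.7 and 149 CPM in GFP-negative cells (0.68, adjusted p = 0.019, under 2-fold). Other glycosyltransferase genes moved the other way in GFP-positive cells, with EOGT rising from 1.94 to 5.68 CPM (1.63, SE 0.28, adjusted p = 9.0e-06) and POGLUT3 also called higher. So 2 of 8 genes of this list fell and 2 rose in GFP-positive cells, against 11.2% and 12.8% of all genes. In GFP-negative cells LFNG and MFNG were the only genes of the list called, against 9.75% lower of all genes. EOGT and POGLUT3 had positive changes there too, of 0.61 and 0.49 (adjusted p = 0.19 and 0.072). Their responses did not differ detectably between the fractions (0.93 and 0.79, adjusted p = 0.28 and 0.16).

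No gene for cutting the receptor was called lower with treatment, where 11.2% of all genes were in GFP-positive and 9.75% in GFP-negative cells. The 1 of 9 that rose in each fraction stands against 12.8% and 8.59% of all genes. These counts are close to the shares of all genes. Of 9 genes for gamma-secretase and the earlier cleavages, ADAM17, a metalloprotease, rose in both fractions, from 17.8 to 47.3 CPM in GFP-positive (log2 fold change 1.48, SE 0.21, adjusted p = 2.5e-07) and from 20.1 to 47.3 CPM in GFP-negative cells (1.21, SE 0.18, adjusted p = 0.00097). None of the 9 was called lower by edgeR in either treatment comparison, where 1 in GFP-positive and 0 in GFP-negative cells were lower at an unadjusted p under 0.05, and none by DESeq2. Their summed level was 547 to 634 CPM in control and 637 to 684 CPM in treated GFP-positive libraries, and 626 to 651 against 924 to 1070 CPM in GFP-negative libraries.

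Among 14 genes of ligand uptake and receptor turnover, 1 rose and 1 fell in GFP-positive cells, against 12.8% and 11.2% of all genes. In GFP-negative cells 1 rose and 3 fell, against 8.59% and 9.75%. NEDD4, a ubiquitin ligase with many membrane protein substrates, gave the largest rise of the 14. It was at 5.52 to 8.55 CPM in control and 69.0 to 84.6 CPM in treated GFP-positive libraries (log2 fold change 3.62, SE 0.20, adjusted p = 1.1e-16), and rose from 11.5 to 62.2 CPM in GFP-negative cells (2.42, SE 0.29, adjusted p = 0.00031). DTX1 and DTX4, 2 Deltex ligases that bind Notch, fell. DTX1 went from 166 to 61.3 CPM in GFP-positive cells (-1.37, adjusted p = 2.0e-08) and from 79.2 to 37.7 CPM in GFP-negative cells (-1.09, adjusted p = 0.0022), and DTX4 from 389 to 118 CPM in GFP-negative cells (-1.74, adjusted p = 0.0011). In GFP-positive cells DTX4 went from 120 to 76.6 CPM and was not called. NEURL1B, a ligase that promotes ligand uptake, fell in GFP-negative cells from 26.4 to 9.08 CPM (-1.57, adjusted p = 0.00025) and by less than 2-fold in GFP-positive cells (-0.82, adjusted p = 0.00047). MIB1 and MIB2, ligases that also act in ligand uptake, had higher values after treatment, at 55.7 and 105 CPM for MIB1 (0.99, adjusted p = 1.8e-05) and 108 and 155 CPM for MIB2 (0.59, adjusted p = 0.0023) in control and treated GFP-positive cells, both under 2-fold. In control and treated GFP-negative cells MIB1 was at 44.1 and 56.5 CPM and MIB2 at 90.5 and 159 CPM. Neither was called there.

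In the nucleus, 1 of 11 genes of the Notch complex fell in each fraction. Of all genes, 11.2% fell in GFP-positive and 9.75% in GFP-negative cells. None of the 11 was called higher, against 12.8% and 8.59%, though 2 and 1 were higher at an unadjusted edgeR p under 0.05. MAML2, a Mastermind coactivator, fell in GFP-positive cells from 7.39 to 1.68 CPM (log2 fold change -2.06, SE 0.26, adjusted p = 5.0e-08) and was called in no other treatment comparison (-0.51 in GFP-negative cells, adjusted p = 0.33). KAT2A fell in GFP-negative cells from 72.7 to 36.2 CPM (-1.03, SE 0.19, adjusted p = 0.0029). In GFP-positive cells KAT2A went from 52.5 to 25.3 CPM without a call. Of 15 co-repressor genes, 3 of 14 tested fell and 2 rose in GFP-positive cells, against 11.2% and 12.8% of all genes. In GFP-negative cells 1 of 15 fell and 2 rose, against 9.75% and 8.59%. The Groucho gene TLE3 went from 196 to 75.0 CPM in GFP-positive and from 165 to 101 CPM in GFP-negative cells. The Groucho genes TLE1 and TLE4, whose proteins HES factors recruit, fell in GFP-positive cells. TLE1 was at 175, 197 and 179 CPM in control and 30.0, 35.5 and 31.9 CPM in treated libraries (-2.42, SE 0.17, adjusted p = 2.6e-14), and TLE4 went from 105 to 30.6 CPM (-1.71, SE 0.17, adjusted p = 1.9e-10). In GFP-negative cells they fell by 0.86 and by 0.68 on the log2 scale, under the 2-fold limit. In the fit without a block, TLE1 and TLE4 were the only 2 of 69 other pathway genes whose response differed between the fractions, by -1.65 (SE 0.21, adjusted p = 0.00082) and -1.11 (SE 0.21, adjusted p = 0.013), and both were lower in GFP-positive cells, as JAG1 was. None was called in the other direction in that fit, though 9 were at an unadjusted p under 0.05 and DESeq2 called 4. Without control GFP-negative replicate 3 the counts were 3 lower and 1 higher, NRARP. BEND6, a co-repressor of Notch targets in neurons, rose in both fractions, from 1.61 to 9.84 CPM in GFP-positive cells (2.69, SE 0.26, adjusted p = 1.2e-10) and from 0.789 to 4.06 CPM in GFP-negative cells (2.32, SE 0.35, adjusted p = 0.0011).

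The remaining receptors and ligands of the table changed less. NOTCH4 had 0 to 2 counts per library and was not tested. None of the 6 tested genes of this list was called in either treatment comparison. Of all genes, 11.2% fell and 12.8% rose in GFP-positive cells, and 9.75% fell and 8.59% rose in GFP-negative cells. At an unadjusted p under 0.05 edgeR gave 4 lower in GFP-positive and 2 lower in GFP-negative cells, and DESeq2 called 0. JAG2 was at 69.5 to 80.0 CPM in control and 41.5 to 54.9 CPM in treated GFP-positive libraries (log2 fold change -0.57, SE 0.17, adjusted p = 0.0053), a fall under 2-fold. Between the fractions, CNTN1 and DNER, atypical ligands made by neurons, were higher in GFP-positive controls, at 22.6 against 5.46 CPM (log2 difference 1.93, adjusted p = 0.0038) and 123 against 45.2 CPM (1.33, adjusted p = 0.00015). DLL4, known for its part in vessels and in spinal interneuron choice, was lower, at 8.04 against 18.8 CPM (-1.34, adjusted p = 0.00062). All 72 together gave 5 higher and 11 lower of 69 tested in GFP-positive controls, and 5 higher and 12 lower of 67 in treated cells, against 7.47% higher and 15.3% lower of all genes in control and 10% and 13.7% in treated cells.

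**Figure D3:**
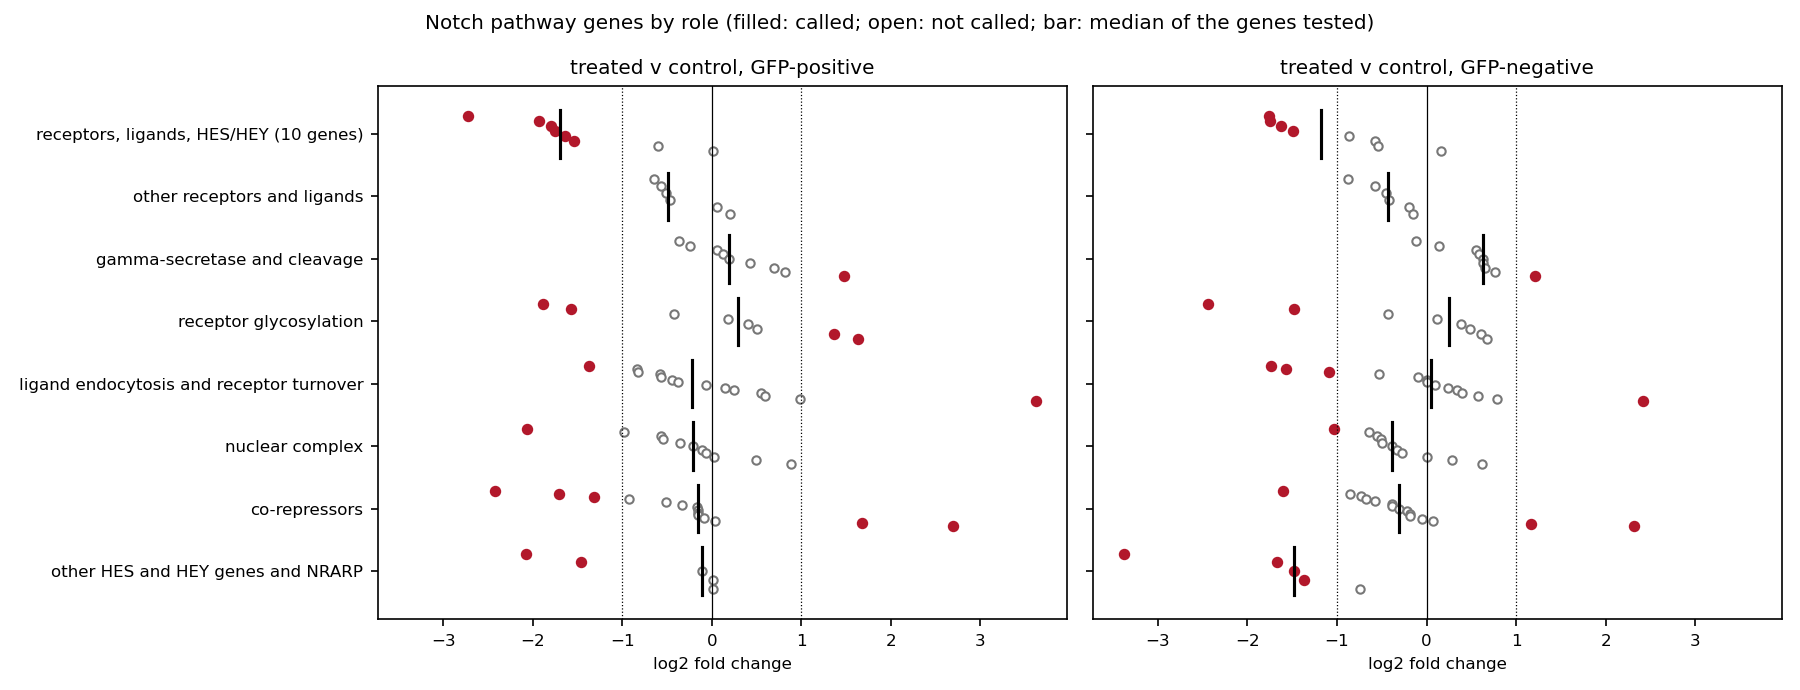
Log2 fold change of treated against control for each tested gene (points), by role in the pathway, in GFP-positive (left) and GFP-negative cells (right); filled points were called, open points were not, bars are medians and dotted lines mark 2-fold. The receptors, ligands and HES or HEY genes of the top row have medians of -1.70 and -1.18, and NEDD4 at 3.62 and NRARP at -3.38 are the farthest points.

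Proneural and ID genes are among those on which HES repressors and Notch act. Of 17 listed, 5 of 14 tested fell and 1 rose in GFP-positive cells, against 11.2% lower and 12.8% higher of all genes, and 7 of 15 fell in GFP-negative cells, against 9.75%. None rose there by edgeR, also at an unadjusted p under 0.05, against 8.59% of all genes. NEUROG1, a proneural factor, went from 7.95 to 0.869 CPM in GFP-positive cells (log2 fold change -3.12, SE 0.34, adjusted p = 1.3e-09) and from 24.9 to 5.08 CPM in GFP-negative cells (-2.32). ID3, an inhibitor of such factors, went from 20.8 to 2.49 CPM (-2.99, SE 0.25, adjusted p = 3.8e-12) in GFP-positive and from 348 to 40.7 CPM in GFP-negative cells (-3.12, SE 0.26, adjusted p = 4.7e-05). ID1, OLIG2 and NEUROD4 had responses that were higher in GFP-positive cells, by 1.99, 1.59 and 1.71 on the log2 scale (adjusted p = 0.0099, 0.0098 and 0.042).

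Markers of other cells moved with these genes. The counts below stand against 11.2% of all genes that fell in GFP-positive and 9.75% in GFP-negative cells. In the latter 8.59% rose, and 15.3% were lower in GFP-positive than in GFP-negative controls. In treated GFP-negative cells 8 of 9 dividing cell markers fell, and their summed level was 1030 to 1160 CPM in control and 316 to 438 CPM in treated libraries. Of 10 neural progenitor markers 6 fell, while their summed level was 6530 to 8800 CPM and 7500 to 8510 CPM. That sum is mostly VIM, which went from 3850 to 6430 CPM (log2 fold change 0.71, adjusted p = 0.002, under 2-fold), whereas NES fell from 2630 to 1120 CPM and SOX3 from 278 to 63.0 CPM. Between the fractions, all 9 dividing cell markers and 9 of 10 progenitor markers were lower in GFP-positive controls, with dividing cell sums of 111 to 154 CPM, so that the receptors and HES1 were high where these markers were. In GFP-positive cells 3 of 9 dividing cell markers fell, with sums going to 68.6 to 71.3 CPM. The part of these shifts in the Notch results was not tested. Of 9 mesenchymal markers 3 of 3 tested fell in GFP-positive cells and 3 of 6 in GFP-negative cells, where COL1A1 fell from 596 to 281 CPM while COL1A2 went from 192 to 300 CPM (log2 fold change 0.62, adjusted p = 0.014, under 2-fold). The 9 markers summed to 261 to 328 CPM in control and 50.2 to 82.3 CPM in treated GFP-positive libraries and to 761 to 887 and 469 to 763 CPM in GFP-negative ones, and PRRX1 and DCN among them had at most 6 counts in any library. Endothelial markers, whose cells also use Notch, summed to at most 17.3 CPM in GFP-positive libraries and to 32.0 to 45.1 against 129 to 164 CPM in GFP-negative ones, mostly through KDR, at 9.39 and 102 CPM. Of 7 tested there, 2 rose (KDR and TIE1) and 2 fell, CLDN5 from 10.9 to 1.70 CPM and TEK from 0.841 to 0.174 CPM, while VWF had 0 to 11 counts per library. PECAM1 ranged from 0.264 to 18.1 CPM among the control GFP-negative libraries. The part of the endothelial markers was not tested either.

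**Figure D4:**
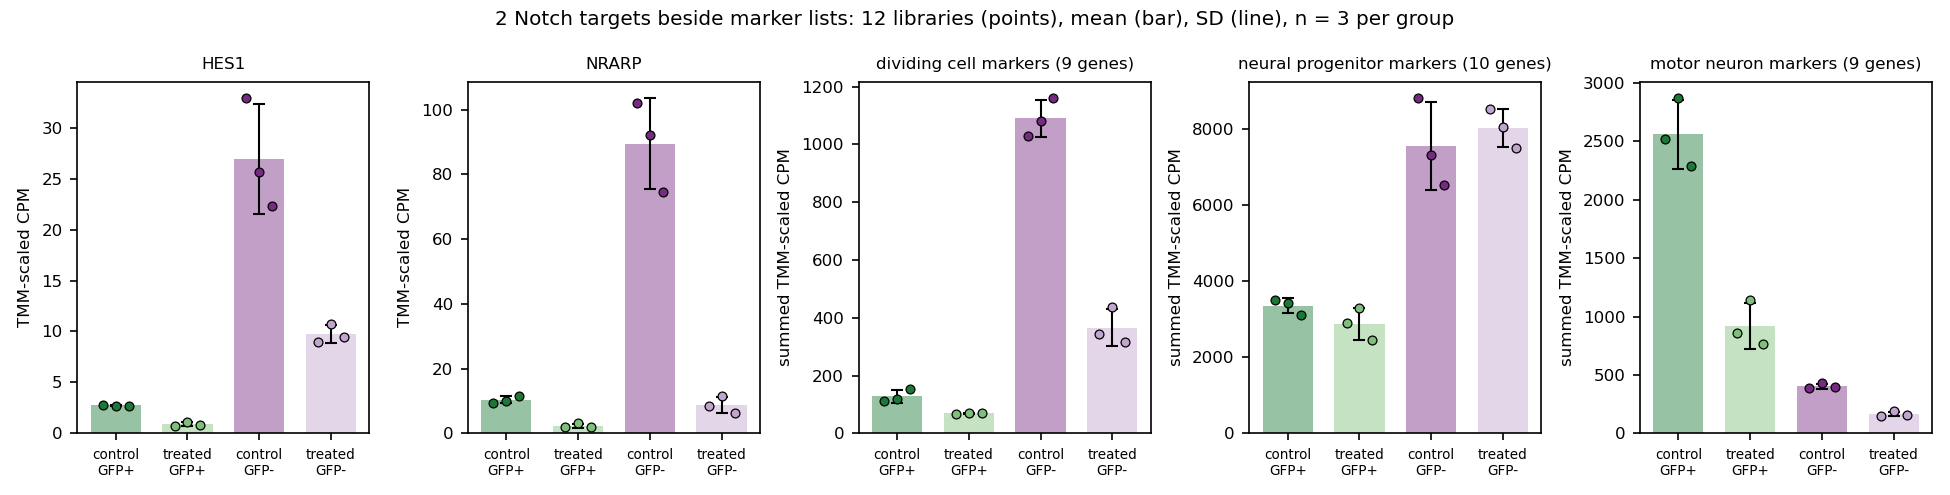
HES1 and NRARP (TMM-scaled CPM) beside the summed CPM of dividing cell, neural progenitor and motor neuron markers, in each of the 12 libraries (points) with the mean (bar) and SD (line) of 3 libraries. HES1, NRARP and the dividing cell markers, at 1030 to 1160 CPM, are highest in control GFP-negative cells and lower after treatment, whereas summed progenitor markers, of which VIM is the most abundant, overlap between treated and control GFP-negative cells.

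Over the 12 libraries, the log2 CPM of HES1 followed that of BIRC5, which makes the mitotic protein survivin, with a Pearson r of 0.998, then TAGLN, a gene of the actin cytoskeleton, with 0.996, and CDC20, an activator of the anaphase-promoting complex, with 0.996. For HES6 the nearest genes were MTG1 (0.994), GSS (0.989) and GSTK1 (0.987), genes of mitochondrial ribosomes and glutathione metabolism. These are descriptions over 12 libraries that share 4 group means, out of 16225 genes compared.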

How the data were processed

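RNA was measured in 12 libraries, 3 in each of 4 groups taken from the labels. The authors aligned reads from a stranded mRNA kit with HISAT2 to hg38 and an Ensembl annotation, and deposited whole-number read counts per gene, which the submitters' processing notes link to featureCounts. Settings for strand and multiply mapped reads are not given in the sources used here. No deposited column was left unused, no 2 libraries held identical values (highest correlation 0.9878), and every row was a gene.

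Counts were analysed with edgeR 4.0.16 in R 4.3.3: TMM scaling, the default expression filter (10 counts, total 15) and the quasi-likelihood F-test fitted to the libraries compared, and p-values adjusted by Benjamini-Hochberg across every gene in the fit. Calls needed an adjusted p under 0.05 together with a 2-fold or larger change, and for the difference of the 2 treatment responses (an interaction over 12 libraries) at an adjusted p under 0.05. SEs are the log2 fold change divided by the square root of F. Levels are TMM-scaled CPM as mean ± SD. An exact permutation test of 3 against 3 cannot go below p = 0.1 and was not used. The fit was tested on simulated data with 200 genes changed 4-fold, of which it recovered 198 (2 false calls among 15152 genes) for treated against control GFP-positive cells and 171 (5 false among 15972) for the interaction. The changed genes were drawn from those above a minimum mean count, and all other genes had no simulated difference between groups. Recovery of smaller changes, or at low counts, was not simulated.

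Named genes were the 10 genes, up to 3 called genes of each list and comparison with the largest change and a mean of at least 1 CPM in 1 group, ISL1, HSPA5, DDIT3 (which rose in both fractions, by 3.62 and 3.05 on the log2 scale) and the 3 closest genes by correlation. JAG2, NOTCH4, RFNG, MIB1, MIB2, TLE3, OLIG2, NEUROD4, the blood genes, the mesenchymal, endothelial and progenitor genes and the V2 interneuron genes were named after their values were seen. The 10 genes and all lists were chosen with earlier results of these data known. Alternatives were DESeq2 1.42.0, other scalings and filters, all 12 libraries in the fit, a test against 2-fold, a replicate block and leaving out each library. Positions and transcript lengths are from GENCODE release 44 on hg38, and promoter sequences from RefSeq (GRCh38.p14). Some single genes of the lists are not reported here.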

Additional observations from a re-analysis of the deposited data

Results flagged for a closer look

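JAG1 was singled out because its treatment response differed between the fractions in a test of the difference itself. The response in GFP-positive cells was lower by -2.25 on the log2 scale (SE 0.32, edgeR adjusted p = 0.0017), with a log2 fold change of -2.72 in GFP-positive and -0.57 in GFP-negative cells. Leaving out each of the 12 libraries in turn gave differences from -2.44 to -1.98, with adjusted p of at most 0.014. Groups of 3 libraries are too small for a test of single libraries that stand apart.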

How the results depend on the processing

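Of 592 log2 values of the 8 tested genes under alternatives, 549 kept their direction and their side of the threshold, 26 turned direction, 9 lost and 8 gained a call. All turned values belong to genes without a call. HEY1 in treated against control GFP-positive cells (0.01) was -0.02 with DESeq2, -0.01 with RLE scaling, -0.05 with all 12 libraries in the fit and -0.13 to 0.19 when leaving out 1 library. For the difference of the responses, scaling by library size alone, which moved the median of all genes from -0.05 to 0.20, gave 0.13 for NOTCH2, 0.10 for HES1 and 0.01 for HEY1, and requiring 10 counts in every library gave 0.02 for NOTCH2 and 0.02 for HES1. Leaving out 1 library gave ranges of -0.11 to 0.31 (NOTCH1), -0.43 to 0.31 (NOTCH2), -0.48 to 0.21 (NOTCH3), -0.50 to 0.08 (DLL3), -0.33 to 0.15 (HES1) and -0.36 to 0.03 (HEY1).

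Testing against 2-fold itself left 2 of the 8 genes lower in GFP-negative cells (DLL3 and NOTCH1). Of the other pathway genes it left 2 higher and 4 lower there, 0 higher and 6 lower between control fractions, and 2 higher and 6 lower between treated fractions. Fitting all 12 libraries gave 8 other genes higher between control fractions, and library size alone gave 8 higher and 7 lower between treated fractions. For the difference of the responses, DESeq2 gave 2 of the 8 genes lower and 4 other genes higher, library size alone 2 other genes higher and 1 lower, and the filter of 10 counts 2 higher. Leaving out 1 library gave 1 to 2 of the 8 genes lower, and 0 to 2 other genes higher and 1 to 3 lower. For HES6, leaving out 1 library gave differences from -1.18 to -0.72, with adjusted p up to 0.29. It was called without control GFP-negative replicate 1 (-1.18, adjusted p = 0.019).

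Same-numbered GFP-positive and GFP-negative libraries may be sorts of 1 culture, but the labels do not say so. Their deviations correlated at 0.35, 0.09 and 0.29 in control and at 0.18, 0.22 and 0.40 in treated cultures, each the highest for its own number. With the culture as a replicate block, the response differed for 2 of the 8 genes, JAG1 (-2.23, adjusted p = 1.4e-05) and HES6 (-1.02, adjusted p = 0.0064), and for 4 other genes higher and 6 lower. The replicate block left 6 of the 8 genes lower in treated GFP-positive cells. The cause of these changes was not tested. Depth limits DLL1 and HES5, which could not be fitted.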

Other observations

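Markers of V2 interneurons, a spinal class whose subtypes are set apart by Notch signaling, were lower in treated GFP-negative cells for 6 of 7 genes, against 9.75% of all genes. Their median log2 fold change was -1.84 against -0.01 for all genes. These genes are given after their values were seen. GATA2, of the V2b subtype that arises with high Notch activity, went from 13.8 ± 0.815 to 3.00 ± 0.540 CPM (SD, n = 3; log2 fold change -2.22, SE 0.24, edgeR adjusted p = 0.00019). FOXN4, which acts in their common progenitor, was at 25.8 to 26.0 CPM in control and 9.68 to 23.5 CPM in treated libraries and did not pass the test (-0.50, adjusted p = 0.24).

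The correlations of the sparse genes are listed for completeness. DLL1 was nearest to LINC02606, with a Pearson r of 0.772 over 12 libraries, and its pattern rests on 1 library. HES5 was nearest to GFER with 0.918, at 0 to 3 counts per library.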
